A study of Homo sapiens with 8 samples.

Results

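Metallothioneins and other genes of zinc binding and zinc transport were followed in A549 cells, an established human lung adenocarcinoma line of alveolar epithelial type, after treatment with interferon-γ (IFN-γ) and the kinase inhibitor AX-0085. The 10 genes were chosen by symbol and found by their Ensembl identifiers among the 60664 genes of the count table. The group holds the metallothioneins MT1E, MT1F, MT1G, MT1M, MT1X and MT2A, the zinc-sensing transcription factor MTF1, the zinc exporter SLC30A1, and the zinc importers SLC39A10 and SLC39A14. All 10 genes have a row in the table, 8 had at least 1 count in some library, and 6 had enough counts for the test (MT1F, MT2A, MTF1, SLC30A1, SLC39A10 and SLC39A14). The data are 8 RNA-seq libraries in 4 pairs, which came from cells left untreated, from cells given IFN-γ, from cells given IFN-γ and then AX-0085 (both), and from cells given AX-0085 alone. The labels give 20 ng of IFN-γ without a volume, with AX-0085 added to 0.5 μM after 24 h and harvest after another 24 h. All groups are the same line grown in the same medium, no vehicle is named for the groups without AX-0085, and the sources do not say whether the duplicates came from separate cultures, so that p-values measure only the spread between these libraries.

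Zinc ions are held at very low free concentration inside cells. Metallothioneins are small cysteine-rich proteins that bind zinc and copper and buffer both, and most of their genes lie in a cluster on chromosome 16. MTF1 binds zinc through its zinc fingers, enters the nucleus and acts at metal response elements in the promoters of metallothionein genes and of SLC30A1, whose product moves zinc out of the cell across the plasma membrane. SLC39A14 (ZIP14) carries zinc, iron and manganese into cells and is known as a gene raised in inflammation, and SLC39A10 (ZIP10) carries zinc into cells at the plasma membrane. IFN-γ signals through JAK kinases, and GAS elements are found in promoters of many genes that respond to it. The study asked how far AX-0085 undoes the transcriptional response to IFN-γ.

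The promoters are shown first, since the members with a window differ in which of the 2 kinds of element named above they hold. The RefSeq table of the GRCh38.p14 assembly holds windows for MT1X, MT2A, MTF1, SLC30A1 and SLC39A10, and of each the 250 bases before the transcription start were searched on both strands for the metal response element core (TGCACNC or TGCGCNC) and for the GAS element (TTCNNNGAA). No entry was found for MT1E, MT1F, MT1G, MT1M and SLC39A14. The MT2A window holds 7 metal response cores, a number reached by 0.0313% of the 35116 windows in the table, and MT1X holds 4, reached by 0.37%. SLC30A1 holds 1 core, 49 to 43 bases before its start, and 24.8% of windows hold at least 1. The MTF1 window holds neither element. A GAS element, present in 6.57% of windows, lies 37 to 29 bases before the upstream of the 2 SLC39A10 starts in the table and 194 to 186 bases before the MT2A start. Capitals mark the metal response cores in the MT2A sequence (chr16:56608334-56608583, plus strand) and in the SLC30A1 sequence (chr1:211579162-211579411, minus strand), and the GAS element in the SLC39A10 sequence (chr2:195656708-195656957, plus strand), each written from 5′ to 3′. A match of letters is a description and was not measured as a bound site.
MT2A: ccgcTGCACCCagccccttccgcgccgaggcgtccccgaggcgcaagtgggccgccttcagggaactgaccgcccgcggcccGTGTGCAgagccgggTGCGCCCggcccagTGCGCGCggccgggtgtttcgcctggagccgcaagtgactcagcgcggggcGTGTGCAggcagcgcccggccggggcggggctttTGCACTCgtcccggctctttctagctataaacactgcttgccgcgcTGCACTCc
SLC30A1: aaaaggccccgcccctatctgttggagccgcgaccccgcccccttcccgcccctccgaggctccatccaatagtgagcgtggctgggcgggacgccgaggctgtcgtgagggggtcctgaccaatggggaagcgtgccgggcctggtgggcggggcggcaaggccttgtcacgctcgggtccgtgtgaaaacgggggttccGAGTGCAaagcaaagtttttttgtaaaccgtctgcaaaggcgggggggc
SLC39A10: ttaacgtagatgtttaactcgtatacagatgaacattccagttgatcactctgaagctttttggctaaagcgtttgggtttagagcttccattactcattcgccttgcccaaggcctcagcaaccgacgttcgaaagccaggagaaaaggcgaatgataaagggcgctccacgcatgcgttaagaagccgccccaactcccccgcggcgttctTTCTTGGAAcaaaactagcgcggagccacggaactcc

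Total counts were between 20672828 and 29978251 per library, and levels are given as CPM, read counts divided by the library size after scaling with TMM factors. A level of 3 counts, set as the detection limit, came to between 0.0959 and 0.158 CPM, which covers counting error only. Mitochondrial genes took 1.71% to 1.82% of the counts with IFN-γ alone and 2.72% to 5.73% in the other 6 libraries. The epithelial markers KRT8, KRT18, KRT19, EPCAM and CDH1 summed to between 2575 and 6881 CPM. All 5 fell with IFN-γ by more than 2-fold, as did 17.2% of all tested genes, and their part in the results below was not tested. The 4 immune markers summed to at most 0.199 CPM, the 3 endothelial markers to at most 0.529 CPM and the 4 fibroblast markers to between 3.06 and 11.1 CPM. COL1A1, the only fibroblast marker with enough counts for the test, also fell with IFN-γ (log2 change -1.45). Fewer cells and less RNA per cell cannot be told apart in such libraries. A gene was called at a Benjamini-Hochberg adjusted p under 0.05 from edgeR's quasi-likelihood test together with a fold change over 2, and "rose" and "fell" are used wherever the adjusted p alone was under 0.05.

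IFN-γ moved the members apart. MTF1, SLC30A1 and SLC39A14 rose more than 2-fold, and MT1F and SLC39A10 fell more than 4-fold. MT2A, which held most of the counts assigned to metallothioneins, did not pass the test. Thus 5 of the 6 tested members were called, 3 higher and 2 lower, where 27.5% of the 15066 tested genes were called (10.3% higher and 17.2% lower). The median log2 change was 0.63 over the 6 members and -0.06 over all tested genes. The members were chosen with earlier results of these data known, so this contrast with all genes is a description only. By adjusted p alone 3 rose and 2 fell, where 68.1% of all tested genes passed (32.1% higher and 36% lower). With AX-0085 on top of IFN-γ, 4 members were called relative to IFN-γ alone (1 higher and 3 lower), where 24.8% of all tested genes were called (16.5% higher and 8.28% lower). By adjusted p alone all 6 changed, with MT1F and SLC39A10 higher and MT2A, MTF1, SLC30A1 and SLC39A14 lower, where 66.5% of all tested genes passed (33.7% higher and 32.8% lower). The medians of this comparison were -0.93 for the members and 0.03 for all genes. Both comparisons use the IFN-γ libraries, which enter them with opposite sign.

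**Figure D1:**
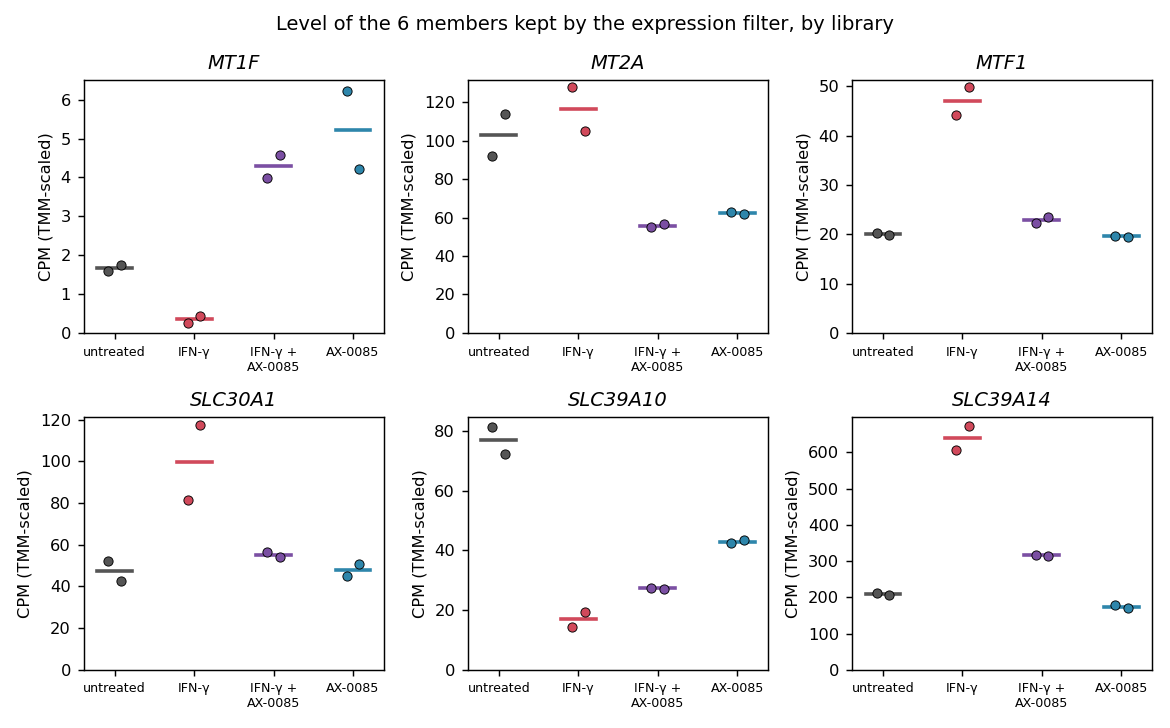
Level of each of the 6 tested members (CPM, TMM-scaled, vertical axes from 0) in the 2 libraries of each of the 4 groups, with points for libraries and bars for group means. MTF1, SLC30A1 and SLC39A14 are highest and MT1F and SLC39A10 lowest in the IFN-γ libraries, while MT2A is lowest in the 4 libraries with AX-0085.

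MT2A (ENSG00000125148, chr16:56608584-56609497, plus strand, GRCh38) held most of the counts assigned to metallothioneins. It was measured at 91.8 and 113.8 CPM in the untreated libraries, 127.9 and 104.8 with IFN-γ, 54.8 and 56.8 with both treatments, and 62.9 and 61.9 with AX-0085 alone. The untreated and IFN-γ libraries overlapped, and all 4 libraries with AX-0085 lay below all 4 without it. With IFN-γ the log2 change was 0.18 (95% interval -0.04 to 0.40, edgeR adjusted p = 0.136). This change ranged from 0.04 to 0.36 when each library was left out and from 0.06 to 0.22 under the other settings. Whether it passed the adjusted p depended on the setting. AX-0085 on top of IFN-γ lowered MT2A by 2.08-fold (log2 change -1.06, SE 0.10, edgeR adjusted p = 1.15e-06). AX-0085 alone lowered it by less than 2-fold (log2 change -0.72, SE 0.10, edgeR adjusted p = 6.42e-05), and the interaction, the AX-0085 change in IFN-γ-treated cells minus that in cells without IFN-γ, was -0.34 on the log2 scale and did not pass the test (95% interval -0.65 to -0.02, edgeR adjusted p = 0.0692). MT2A was thus lower with AX-0085 both in the presence and in the absence of IFN-γ.

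MT1F (ENSG00000198417, chr16:56657731-56660698, plus strand), a metallothionein with far fewer assigned counts, followed another order. Its counts were 48 and 43 in the untreated libraries, 5 and 11 with IFN-γ, 125 and 102 with both, and 156 and 112 with AX-0085 alone. No libraries of the IFN-γ and untreated groups overlapped, and those of the 2 groups with AX-0085 were the highest and overlapped each other on the CPM scale. In CPM the group means were 1.67 ± 0.115 untreated, 0.353 ± 0.126 with IFN-γ, 4.29 ± 0.416 with both and 5.21 ± 1.41 with AX-0085 (SD, n = 2 each). MT1F fell 4.51-fold with IFN-γ (log2 change -2.17, SE 0.38, edgeR adjusted p = 0.000217) and rose 11.5-fold with AX-0085 on top of IFN-γ (log2 change 3.53, SE 0.32, edgeR adjusted p = 5.86e-07). It also rose with AX-0085 alone, by 3.12-fold (log2 change 1.64, SE 0.22, edgeR adjusted p = 3.57e-05), so that with both treatments it stood above untreated cells (log2 change 1.36, SE 0.22, edgeR adjusted p = 0.000193). The smallest of these counts, 5, sets the precision of the IFN-γ level.

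The 4 other metallothionein members gave next to no counts. MT1E had 2 counts, both in untreated library 1, and MT1G had 1 count in untreated library 1 and 1 in the first library with both treatments, each under the detection limit. MT1M and MT1X had 0 counts in all 8 libraries and are not measured here. How reads mapping to more than 1 place were treated is not given in the sources used here, and metallothionein genes are close copies of each other, so that the split of reads among them is uncertain and a 0 was not read as absence of the RNA. In the summed counts of the 6 metallothionein members, MT2A made up 98.2% and 98.5% in the untreated libraries, 99.8% and 99.6% with IFN-γ, 93.2% and 92.5% with both, and 91.0% and 93.6% with AX-0085. Their sum therefore moved like MT2A, from 93.5 and 115.5 CPM untreated and 128.2 and 105.2 CPM with IFN-γ to 58.9 and 61.4 CPM with both and 69.1 and 66.1 CPM with AX-0085.

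Beyond the members, 14 further metallothionein genes and pseudogenes were looked up, of which 4 had any counts and 2 were tested. MT1A, a coding metallothionein of the same cluster, had 61 and 68 counts untreated, 10 and 11 with IFN-γ, 42 and 17 with both, and 37 and 33 with AX-0085. It fell with IFN-γ (log2 change -2.29, SE 0.34, edgeR adjusted p = 5.02e-05) and rose when AX-0085 was added (1.18, SE 0.39, edgeR adjusted p = 0.0178). Unlike the values of MT1F, those of MT1A were lower than untreated with AX-0085 alone (log2 change -0.80, edgeR adjusted p = 0.0215) and with both (-1.11, edgeR adjusted p = 0.00367). MT1DP, a pseudogene, had 14 and 8 counts untreated, 0 and 0 with IFN-γ, 10 and 7 with both, and 16 and 18 with AX-0085. Against untreated cells the IFN-γ level was at least 2.49-fold lower, and with both it was at least 2.002-fold higher than with IFN-γ, taking 3 counts per library as the level of the IFN-γ group. MT3 had 1 count in each library of the untreated and AX-0085 groups and 0 elsewhere, and MT1XP1 had between 0 and 7 counts per library.

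Summed without MT2A, the 7 metallothionein genes with counts stood at 4.24 and 4.93 CPM untreated, 0.845 and 1.05 with IFN-γ, 5.72 and 5.98 with both, and 8.36 and 6.25 with AX-0085. This sum, formed after the values were seen, was thus lowest with IFN-γ, where MT2A stood at 127.9 and 104.8 CPM. The plot of MT2A against the other metallothioneins shows the 8 libraries in 3 separate places, with the groups given AX-0085 side by side.

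**Figure D2:**
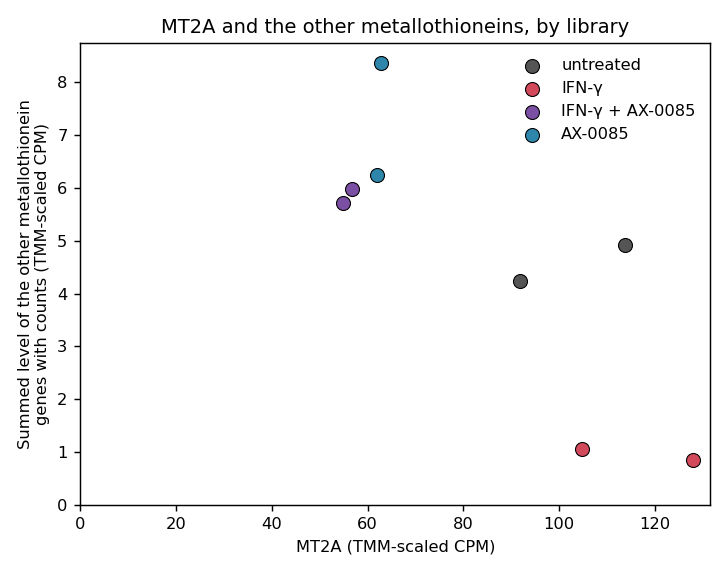
MT2A level (horizontal axis, CPM) against the summed level of the 7 other metallothionein genes with counts (vertical axis, CPM), each point a library coloured by group. The IFN-γ libraries lie near the bottom at 0.845 and 1.05 CPM, and the 4 libraries with AX-0085 lie to the left, between 54.8 and 62.9 CPM of MT2A.

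MTF1 (ENSG00000188786, chr1:37809574-37859592, minus strand), the factor that acts on metallothionein promoters, was highest in the IFN-γ group. The libraries stood at 20.2 and 19.9 CPM untreated, 44.1 and 49.8 with IFN-γ, 22.3 and 23.4 with both, and 19.7 and 19.5 with AX-0085. The IFN-γ libraries were above all others, and the other 6 lay between 19.5 and 23.4 CPM. MTF1 rose 2.34-fold with IFN-γ (log2 change 1.23, SE 0.08, edgeR adjusted p = 2.09e-08) and fell when AX-0085 was added (log2 change -1.04, SE 0.08, edgeR adjusted p = 1.16e-07). With AX-0085 alone the log2 change was -0.03 (95% interval -0.22 to 0.15, edgeR adjusted p = 0.762), and with both against untreated it was 0.19 (95% interval 0.00 to 0.37, edgeR adjusted p = 0.0753). The interaction was -1.01 on the log2 scale (SE 0.12, edgeR adjusted p = 1.29e-05).

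SLC30A1 (ENSG00000170385, chr1:211571568-211579161, minus strand), which exports zinc, was also highest with IFN-γ, with a wider spread. Its libraries stood at 52.0 and 42.6 CPM untreated, 81.6 and 117.6 with IFN-γ, 56.4 and 54.3 with both, and 45.2 and 50.9 with AX-0085. The IFN-γ libraries were above all others, and the untreated and AX-0085 libraries overlapped. The gene rose 2.11-fold with IFN-γ (log2 change 1.08, SE 0.14, edgeR adjusted p = 1.39e-05). This change was no longer over 2-fold without untreated library 2 (log2 change 0.95) or without IFN-γ library 2 (0.83), nor with scaling by library size alone (0.96), which moved the median of all genes from -0.06 to -0.18. It fell by less than 2-fold when AX-0085 was added (log2 change -0.85, SE 0.14, edgeR adjusted p = 0.000121) and passed 2-fold without IFN-γ library 1 (-1.10). AX-0085 alone gave a log2 change of 0.02 (95% interval -0.29 to 0.33, edgeR adjusted p = 0.916).

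SLC39A14 (ENSG00000104635, chr8:22367278-22434129, plus strand), the importer known from inflammation, had the most counts of all members. Its libraries stood at 212.4 and 206.0 CPM untreated, 605.7 and 673.1 with IFN-γ, 318.2 and 313.7 with both, and 179.2 and 169.9 with AX-0085. The 4 groups did not overlap. SLC39A14 rose 3.06-fold with IFN-γ (log2 change 1.61, SE 0.06, edgeR adjusted p = 1.57e-10) and fell 2.02-fold when AX-0085 was added (log2 change -1.02, SE 0.06, edgeR adjusted p = 1.41e-08), which left it above untreated cells (log2 change 0.59, SE 0.06, edgeR adjusted p = 3.93e-06). AX-0085 alone lowered it slightly (log2 change -0.26, SE 0.06, edgeR adjusted p = 0.00378). The libraries with both treatments thus lay between those of the IFN-γ and untreated groups.

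SLC39A10 (ENSG00000196950, chr2:195575977-195737702, plus strand), the other importer, went the opposite way. It stood at 81.3 and 72.3 CPM untreated, 14.5 and 19.3 with IFN-γ, 27.4 and 27.2 with both, and 42.4 and 43.4 with AX-0085. The 4 groups did not overlap here either, and every treated group was below the untreated one. SLC39A10 fell 4.51-fold with IFN-γ (log2 change -2.17, SE 0.11, edgeR adjusted p = 1.81e-09) and by less than 2-fold with AX-0085 alone (log2 change -0.84, SE 0.10, edgeR adjusted p = 1.57e-05). On top of IFN-γ, AX-0085 raised it (log2 change 0.68, SE 0.12, edgeR adjusted p = 0.000169), yet with both it was still below untreated cells (log2 change -1.49, SE 0.11, edgeR adjusted p = 8.49e-08). AX-0085 therefore lowered SLC39A10 without IFN-γ and raised it with IFN-γ, and the interaction was 1.52 on the log2 scale (SE 0.15, edgeR adjusted p = 3.90e-06).

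**Figure D3:**
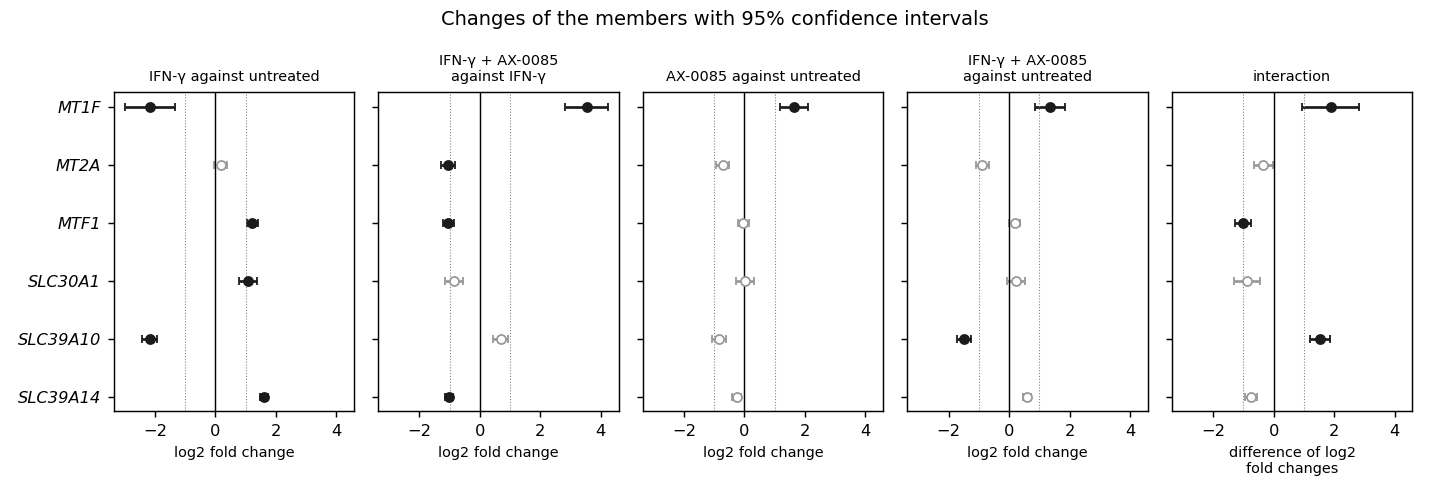
Log2 fold change with its 95% interval for each of the 6 tested members (horizontal axes) in the 4 comparisons of groups and in the interaction, with filled points for called changes and dotted lines at a 2-fold change. MT1F is the member called in every panel, and the calls of MT2A, MTF1 and SLC39A14 in the panel of both against IFN-γ lie close to the 2-fold line.

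Several calls lay close to the 2-fold limit. In cells given both, relative to IFN-γ alone, the changes of MT2A, MTF1 and SLC39A14 had 95% intervals that reached below 2-fold (upper ends -0.83, -0.87 and -0.88 on the log2 scale). The MT2A call was lost without IFN-γ library 1 (log2 change -0.92), and those of MTF1 (-0.96) and SLC39A14 (-0.94) were lost without IFN-γ library 2, whereas the directions held when any library was left out. A filter of at least 10 counts in every library also ended the calls of MTF1 (-0.99) and SLC39A14 (-0.96), and a fit of only the groups compared ended that of SLC39A14 (-0.997). Scaled by library size alone, which moved the median log2 change of all genes in this comparison from 0.03 to 0.16, only MT1F was called.

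AX-0085 alone changed few members by more than 2-fold. Compared with untreated cells, 1 of the 6 tested members was called (MT1F, higher), where 12% of all tested genes were called (6.41% higher and 5.62% lower), and the medians were -0.15 for the members and 0.01 for all genes. By adjusted p alone MT1F rose and MT2A, SLC39A10 and SLC39A14 fell, where 53.3% of all tested genes passed (26.7% higher and 26.6% lower). With both treatments compared with untreated cells, 2 were called (MT1F higher, SLC39A10 lower), where 14.7% of all tested genes were called (7.51% higher and 7.23% lower), with medians of 0.20 for the members and 0.01 for all genes. By adjusted p alone MT1F and SLC39A14 rose and MT2A and SLC39A10 fell, where 56.9% passed (28.1% higher and 28.8% lower). The interaction was called for 3 members (MT1F and SLC39A10 higher, MTF1 lower), where 18.6% of all tested genes were called (12.1% higher and 6.46% lower), with medians of -0.55 and 0.05. By adjusted p alone SLC30A1 and SLC39A14 passed as well, both lower, where 50.3% passed (26.7% higher and 23.6% lower). The interaction of MTF1 was no longer over 2-fold without untreated library 2 (-0.998), without IFN-γ library 2 (-0.93) or without the first library with both treatments (-0.99), nor with scaling by library size alone (-0.89) or at least 10 counts in every library (-0.97). That of SLC30A1 passed 2-fold without untreated library 1 (-1.04) or IFN-γ library 1 (-1.11).

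The other zinc transporters were looked up as 2 lists. Of 9 further SLC30 genes, most of which carry zinc out of the cytosol, 5 were tested. With IFN-γ 2 rose and 2 fell by adjusted p, where 32.1% of all tested genes rose and 36% fell. The median log2 change of these 5 was -0.13, beside -0.06 for all tested genes. The only call (1 of 5, where 27.5% of all tested genes were called) was SLC30A3, a vesicular zinc transporter best known from synaptic vesicles. It had 4.83 and 5.01 CPM untreated, 1.53 and 1.05 with IFN-γ, 2.11 and 2.74 with both, and 3.19 and 3.84 with AX-0085. It fell with IFN-γ (log2 change -1.96, SE 0.22, edgeR adjusted p = 3.49e-06) and remained lower with both (-1.04, SE 0.19, edgeR adjusted p = 0.000369), and its interaction was 1.40. The order of groups was that of SLC39A10.

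Of 12 further SLC39 importers, 7 were tested, and with IFN-γ 5 fell and 1, SLC39A4, rose (log2 change 0.66, edgeR adjusted p = 0.000229), none by more than 2-fold. By adjusted p alone 36% of all tested genes fell and 32.1% rose. The median log2 change of these 7 importers with IFN-γ was -0.34, beside -0.06 for all tested genes. SLC39A8 (ZIP8), a close relative of SLC39A14, had 25.5 and 23.7 CPM untreated, 18.1 and 16.8 with IFN-γ, 11.03 and 10.88 with both, and 17.4 and 17.0 with AX-0085. It was the only called gene of this list in any comparison, lower with both than untreated (log2 change -1.17, SE 0.09, edgeR adjusted p = 1.23e-07). SLC39A8 and SLC39A14 thus moved in opposite directions with IFN-γ, the former by a log2 value of -0.50 (edgeR adjusted p = 0.000137). SLC39A1, SLC39A2, SLC39A3, SLC30A2 and SLC30A8 had 0 counts in all libraries. In GENCODE 44, 69.1% of the exon bases of SLC39A1 are shared with exons of other genes. PCBP1 and ATP7A, from the lists of iron and copper genes below, also had 0 counts in all libraries. For them 73.2% and 3.81% of exon bases are shared. None of these zeros is read as absence, and whether reads were lost in the counting was not tested.

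**Figure D4:**
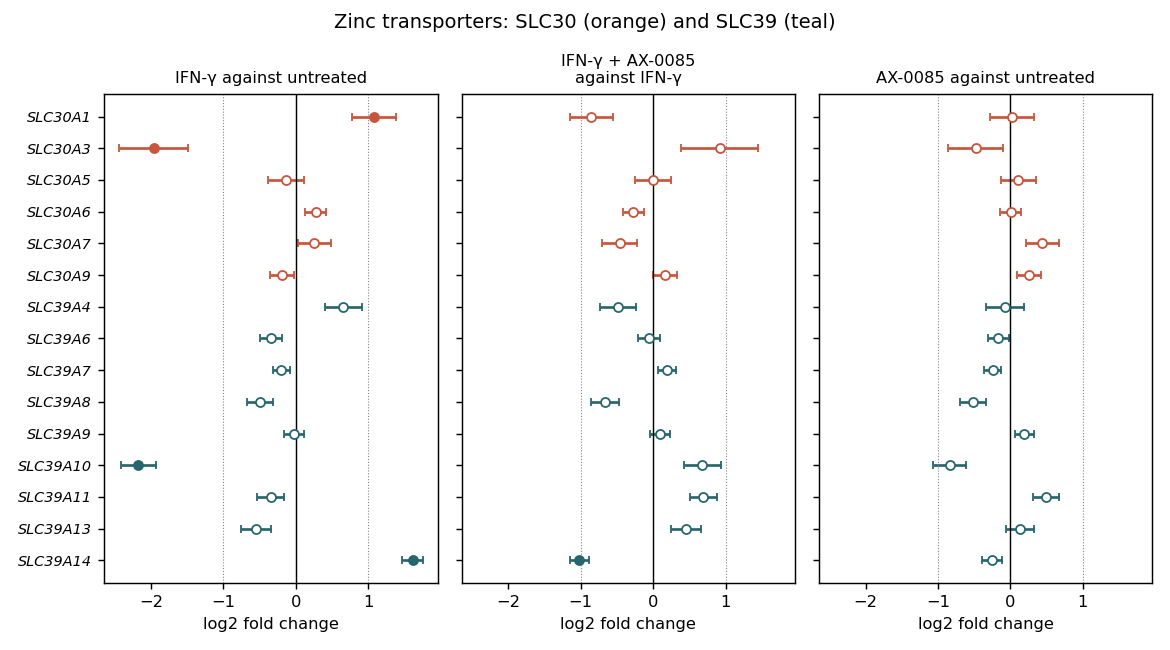
Log2 fold change of the 15 tested SLC30 and SLC39 transporter genes (vertical axis) with IFN-γ against untreated, with both against IFN-γ, and with AX-0085 alone against untreated, with filled symbols for called changes. SLC39A14 (1.61) and SLC30A1 (1.08) rise furthest with IFN-γ and SLC39A10 (-2.17) and SLC30A3 (-1.96) fall furthest.

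Genes of copper and iron handling were set beside the zinc genes, since metallothioneins also bind copper and SLC39A14 also carries iron. Of 12 copper genes 10 were tested, and with IFN-γ 2 were called, both lower, where 17.2% of all tested genes were called lower. The median log2 change was -0.53, beside -0.06 for all tested genes. They were CP (ceruloplasmin, a copper-carrying ferroxidase; -1.77, edgeR adjusted p = 3.10e-09) and ATP7B (a copper-exporting ATPase; -1.40, edgeR adjusted p = 6.26e-07). Both were called higher when AX-0085 was added (1.79 and 1.25). With AX-0085 alone, CP was called higher (1.12) and SCO2, which delivers copper to cytochrome oxidase, lower (-1.36, from at most 35 counts in these 4 libraries). With both against untreated, COX17, a mitochondrial copper chaperone, was called lower (-1.33), and in the interaction ATP7B was called higher (1.01). Over all tested genes, 24.8% were called with AX-0085 added, 12% with AX-0085 alone, 14.7% with both against untreated and 18.6% in the interaction.

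Of 14 iron genes 12 were tested, and 2 were called lower with IFN-γ, where 17.2% of all tested genes were called lower. The median log2 change was -0.26, beside -0.06 for all tested genes. They were TFRC, the transferrin receptor that brings iron in (log2 change -1.60, edgeR adjusted p = 2.98e-10), and SLC40A1 (ferroportin), the iron exporter (-1.26, edgeR adjusted p = 5.13e-07). When AX-0085 was added, SLC40A1 (1.48) and TF (transferrin; 3.05) were called higher. TF was also called higher with AX-0085 alone (2.27) and with both against untreated (2.84), from 4 to 9 counts in untreated libraries and 27 to 49 counts with AX-0085. The interaction was called for TFRC (1.60). The shares of all tested genes called in these comparisons are those given above for copper.

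Per kilobase of exon, levels of different genes can be set side by side only roughly. The divisor is all annotated exon bases of a gene, merged over its transcripts, and not the length of the RNA present. For MT2A it is 914 bases in 1 block that spans the whole gene. For MT1F it is 1852 bases, beside 396 for MT1A. The order of genes below, with the place of MT1F in it, depends on this divisor. In untreated cells MT2A was highest at 112 CPM per kb, followed by SLC39A14 (30.3), SLC39A10 (11.1), SLC30A1 (8.02), MTF1 (2.51) and MT1F (0.902), and no neighbours in this order overlapped between libraries. With IFN-γ the order was MT2A (127), SLC39A14 (92.6), SLC30A1 (16.9), MTF1 (5.87), SLC39A10 (2.44) and MT1F (0.191), so that SLC39A10 passed from the third to the fifth place. With both treatments SLC39A10 (3.95) again stood above MTF1 (2.86), below SLC30A1 (9.39). With AX-0085 alone MT1F (2.82) and MTF1 (2.46) were the only neighbours whose libraries overlapped.

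The genes whose log2 CPM followed the members most closely over the 8 libraries were taken from 10130 genes of at least moderate level, as a description without a test. For SLC39A14 they were PPP4R3A, MYH9 and LTO1 (Pearson's r between 0.997 and 0.999), for SLC30A1 they were FLVCR1, PCNX1 and IBTK (0.995 to 0.998), and for MT2A they were YJU2, BUD13 and G6PC3 (0.990 to 0.994). FLVCR1 is a transporter of the plasma membrane known for heme and choline, and MYH9 is a nonmuscle myosin heavy chain. The 8 points of each correlation are 4 groups of 2 libraries and share their depth and treatment.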

How the data were processed

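RNA from 8 A549 libraries, 2 in each of 4 groups, was sequenced as stranded mRNA. The authors trimmed reads with Trim Galore 0.6.7, aligned the reads with STAR 2.7.9a to GRCh38 and assigned them to genes with featureCounts. The deposited values are raw counts per gene. The annotation release, the strand setting and the treatment of reads mapping to several places are not given in the sources used here. Positions and exon overlaps are from GENCODE 44, which matched 60463 of 60664 identifiers.

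Counts were filtered (filterByExpr), scaled (TMM) and tested with edgeR 4.0.16 (quasi-likelihood) in R 4.3.3, with all 8 libraries in a model of the 4 groups without covariates. P-values were adjusted over 15066 genes. Exact tests of single values cannot go below p = 0.333 with 2 libraries a group. Members, lists and tests were chosen with earlier results of these data known. All members were named, and of the lists the called genes. The procedure was tested on simulated counts. DESeq2 1.42.0 and further settings were tried as alternatives. The 2 libraries of a group differed by more than counting noise (chi-square per degree of freedom 8.55 to 27.7). Total counts per library are given above.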

Additional observations from a re-analysis of the deposited data

Results flagged for a closer look

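By the interaction term of edgeR's quasi-likelihood fit, AX-0085 acted differently with and without IFN-γ in 5 of the 6 tested members. At the same adjusted p under 0.05, 50.3% of all tested genes passed. The difference on the log2 scale was 1.89 for MT1F (adjusted p = 0.00304) and 1.52 for SLC39A10 (adjusted p = 3.90e-06). On the log2 scale AX-0085 raised MT1F more in the presence of IFN-γ than in its absence. The group means in CPM went from 0.353 to 4.29 with IFN-γ and from 1.67 to 5.21 without it. The IFN-γ level rests on 5 and 11 counts. AX-0085 raised SLC39A10 with IFN-γ and lowered it without. The difference was -1.01 for MTF1 (adjusted p = 1.29e-05), -0.87 for SLC30A1 (adjusted p = 0.00261) and -0.76 for SLC39A14 (adjusted p = 1.54e-05). AX-0085 lowered these 3 genes in the presence of IFN-γ, and in its absence it lowered SLC39A14 less, while SLC30A1 (log2 change 0.02) and MTF1 (-0.03) did not pass the test.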

How the results depend on the processing

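With 2 libraries per group, the 2-fold limit decided most of the calls that moved. Counts of called members with IFN-γ were 4 or 5 under every alternative. With AX-0085 added to IFN-γ, 4 members were called as reported, 1 with scaling by library size alone and 1 with at least 10 counts in every library, a filter that leaves out MT1F and under which MTF1 and SLC39A14 were no longer over 2-fold, and between 2 and 4 when each library was left out. Under that filter the counts were 0 with AX-0085 alone, 1 with both against untreated and 1 in the interaction. By adjusted p alone they were 4, 4 and 5. The interaction gave between 2 and 4 when each library was left out. The log2 change of SLC30A1 with AX-0085 alone ranged from -0.12 (without untreated library 2) through -0.07 (without AX-0085 library 2) to 0.19. Over all members' changes and alternatives, 417 kept direction and call, 17 lost the call, 3 gained it and 2 turned direction. A call here includes the 2-fold limit, so that a change that only crossed the adjusted p limit counts as kept. Libraries with the same number did not deviate together (correlations from -0.07 to 0.04 over 6 pairs of groups), and the replicate number as a block gave 5, 4, 1, 2 and 3 called members in the 5 comparisons, with no call changed. Depth limits MT1E, MT1G and the IFN-γ level of MT1F.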
